A study of Homo sapiens with 6 samples.

Results

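The genes of cholesterol synthesis and of its control by the sterol regulatory element-binding proteins (SREBPs) were examined in HCT116, a human colorectal carcinoma cell line. The set holds 27 genes, chosen by symbol from the 61806 genes of the deposited table: 19 enzymes that make sterols and isoprenoids, the sterol carrier STARD4, the transcription factor genes SREBF1 and SREBF2, their escort and retention genes SCAP, INSIG1 and INSIG2, and the lysosomal cholesterol exporters NPC1 and NPC2. RNA was sequenced from 3 control libraries, labelled si-NC and of genotype wildtype, and from 3 libraries labelled si-STRIP2, whose genotype is given as STRIP2 knockdown, where si stands for small interfering RNA. STRIP2 is a scaffold protein of the STRIPAK complexes, which join phosphatase and kinase subunits. Cells of both groups were grown in McCoy's 5A medium with fetal bovine serum, which supplies lipoprotein cholesterol. The siRNA sequences, the dose and the time of harvest are not given in the sources used here. Whether the libraries of a group are separate cultures is not stated either, so p-values measure only the spread between these libraries, which may be technical.

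Cells make cholesterol from acetyl-CoA. The mevalonate trunk leads to farnesyl diphosphate, which either goes to longer isoprenoids for protein prenylation, dolichol and ubiquinone or is joined into squalene, closed into lanosterol and trimmed to cholesterol. When sterols are scarce in the endoplasmic reticulum, SCAP carries the SREBPs to the Golgi, where they are cleaved, and the released fragments switch on most genes of this pathway. When sterols are plentiful, the INSIG proteins hold SCAP back. The SREBF2 product acts mainly on cholesterol genes and SREBF1 products mainly on fatty acid genes. In intestinal epithelium, as in most tissues, the same genes respond to the cholesterol that cells take up.

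The promoters are shown first, because the SREBPs bind sterol regulatory elements in this region together with the factors NF-Y and Sp1. Sequences are the 250 bases before the RefSeq start (GRCh38.p14), on the strand of the gene, for 5 members chosen with their results known: MVK and NSDHL, which rose and hold the most CCAAT boxes, SREBF2, which holds a sterol regulatory element, and MSMO1 and CYP51A1, which fell. They lie at chr12:109573544-109573793 (MVK, plus strand), chrX:152830813-152831062 (NSDHL, plus strand), chr22:41832855-41833104 (SREBF2, plus strand), chr4:165327419-165327668 (MSMO1, plus strand) and chr7:92134478-92134727 (CYP51A1, minus strand). In the deposited table MVK begins at 109573255 and CYP51A1, on the minus strand, at 92134803. The MVK and CYP51A1 windows therefore lie inside these genes as counted. The NSDHL, SREBF2 and MSMO1 windows reach past the starts in that table. Capitals mark the CCAAT box, the core of an NF-Y site, on either strand (CCAAT or ATTGG), and the sterol regulatory element TCACNCCAC on either strand.
MVK: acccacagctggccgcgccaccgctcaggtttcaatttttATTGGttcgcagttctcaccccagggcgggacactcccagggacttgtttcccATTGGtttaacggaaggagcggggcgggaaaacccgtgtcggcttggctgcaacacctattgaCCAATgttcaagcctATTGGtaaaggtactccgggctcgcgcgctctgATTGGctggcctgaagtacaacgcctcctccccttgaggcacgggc
NSDHL: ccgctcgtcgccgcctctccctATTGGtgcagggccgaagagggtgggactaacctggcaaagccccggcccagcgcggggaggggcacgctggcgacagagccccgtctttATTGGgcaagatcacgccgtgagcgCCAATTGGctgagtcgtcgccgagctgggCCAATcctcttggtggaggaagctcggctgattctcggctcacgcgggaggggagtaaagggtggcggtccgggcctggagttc
SREBF2: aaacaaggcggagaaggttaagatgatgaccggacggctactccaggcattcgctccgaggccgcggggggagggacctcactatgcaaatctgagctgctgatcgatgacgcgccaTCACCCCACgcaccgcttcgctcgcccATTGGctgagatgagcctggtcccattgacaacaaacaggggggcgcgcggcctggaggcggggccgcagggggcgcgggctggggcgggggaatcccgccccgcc
MSMO1: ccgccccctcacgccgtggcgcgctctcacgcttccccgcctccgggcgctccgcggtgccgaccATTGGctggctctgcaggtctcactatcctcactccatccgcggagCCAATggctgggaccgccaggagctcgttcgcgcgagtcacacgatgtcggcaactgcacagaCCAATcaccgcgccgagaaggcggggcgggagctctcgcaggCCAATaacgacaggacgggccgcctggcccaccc
CYP51A1: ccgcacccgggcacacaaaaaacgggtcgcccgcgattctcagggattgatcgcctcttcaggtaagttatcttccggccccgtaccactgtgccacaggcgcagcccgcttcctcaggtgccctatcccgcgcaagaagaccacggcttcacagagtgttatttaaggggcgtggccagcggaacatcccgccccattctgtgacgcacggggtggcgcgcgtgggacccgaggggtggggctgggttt

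The MVK and NSDHL promoters each held 5 CCAAT boxes, a pair of which overlap in NSDHL, the MSMO1 promoter held 4, and the CYP51A1 promoter held 0. The sterol regulatory element of SREBF2 began 133 bases before the start. RefSeq promoters were matched for 24 of the 27 genes, with 33 starts in all. For some genes the windows of different starts overlap, so that the CCAAT box of SC5D is counted in both of its windows. ACAT2, FDFT1 and SQLE were not matched. A CCAAT box was found in 20 of the 33 promoters (60.6%), against 32.0% of all 35116 RefSeq promoters and 32.9% of the 16074 promoters of tested genes. The Sp1 motif GGGCGG (either strand), whose end letters a CCAAT box can share, was found in 90.9%, against 42.6% and 63.0%. The sterol regulatory element in the spelling TCACNCCAC was found in 1 promoter (3.03%), against 0.883% and 0.803%. No other spelling was searched, so elements that differ from it by any letter are not counted. These matches are a description of the letters in this window. By outcome, a CCAAT box was present for all 6 matched genes that rose, for 6 of the 9 that fell and for 6 of the 9 that were not called, and no test was made of these counts. Here a gene is counted if any of its starts has a box, and the share of all tested genes counted in this way was not computed.

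The libraries held 17184963 to 21721218 counts, and the lowest count of any member was 118, for MVK in an si-NC library. In si-NC the STRIP2 level was 3.19, 3.77 and 3.81 FPKM (fragments scaled to exon length and library total), and in si-STRIP2 it was 2.71, 2.53 and 2.58, a remaining level of 72.6% (log2 fold change -0.46 with a standard error, SE, of 0.083, adjusted p = 1.62e-05 by edgeR). Of 8 markers of colorectal epithelium, 6 were above 1 FPKM in every library, EPCAM, KRT8, KRT18 and KRT19 among them, while CDX1 was at 0 and VIL1 at 0 to 0.03 FPKM. Of these markers CDH1 went from 36.6 ± 1.43 to 24.2 ± 0.318 FPKM (log2 fold change -0.60, adjusted p = 1.57e-14 by edgeR). Summed markers were at most 0.330 FPKM for blood and 0.1 FPKM for endothelium. Those of fibroblasts reached 2.59 FPKM, nearly all of it COL1A1, with COL1A2 and DCN at 0. Those of liver reached 0.120 FPKM in si-NC and 0.940 FPKM in si-STRIP2, and their part in the results was not tested.

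All 27 genes passed the filter on low counts. Genes with an adjusted p under 0.05 are named called, from edgeR's quasi-likelihood test over all 15687 tested genes. Of the 27 genes, 17 were called (63.0%), against 54.8% of all tested genes. In si-STRIP2, 7 rose, against 27.8% of all tested genes, and 10 fell, against 27%. For 16 of the 27, or 59.3%, no si-STRIP2 value lay within the si-NC range or the reverse, against 58.6% of all tested genes. Overlapping genes on either strand, with which reads may be shared, are given below where they held many counts, and were named after their values were seen. The shares that changed lay near the background of a comparison in which most genes changed. The changes were small. The median absolute log2 fold change was 0.17, against 0.26 over all tested genes, and 2 members, MVK and CYP51A1, were called with more than a 1.5-fold change (7.41%, against 14.5%). The median log2 fold change was 0.033 for the members and 0.014 for all tested genes. In RNA of whole cultures, a lower level in every cell and fewer cells that express a gene cannot be told apart.

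**Figure D1:**
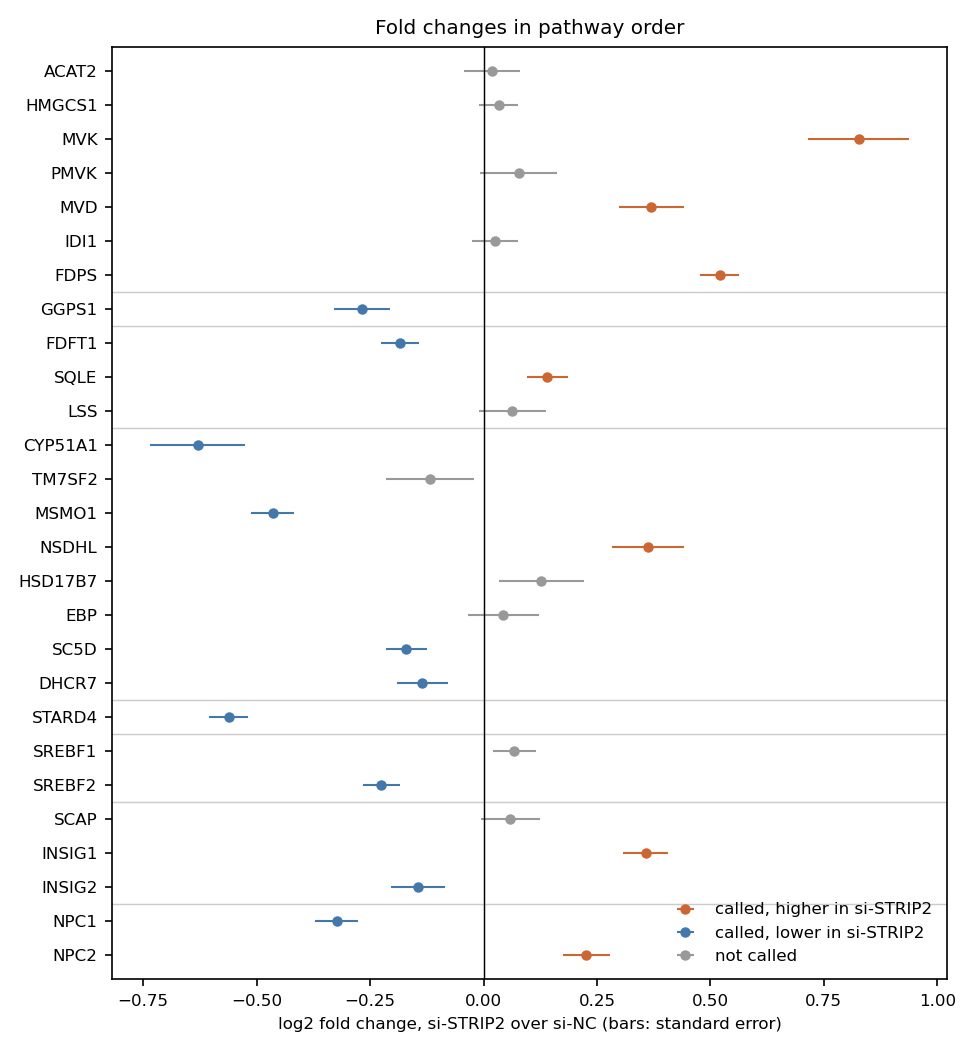
Fold changes of the 27 genes in pathway order, with the log2 fold change of si-STRIP2 over si-NC on the x axis and bars for the standard error (3 libraries a group). Lines separate the mevalonate trunk, GGPS1, the squalene and ring steps, the steps from lanosterol, STARD4, the SREBP genes, their retention genes and the lysosomal exporters. Called genes lie on both sides of 0, from -0.63 for CYP51A1 to 0.83 for MVK.

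In the mevalonate trunk the kinase gene MVK, the decarboxylase gene MVD and the farnesyl diphosphate synthase gene FDPS rose, and 0 of the 7 genes fell, so 42.9% were called, against 54.8% of all tested genes. FDPS (ENSG00000160752, chromosome 1, 155308748 to 155320666, plus strand) had 19.69, 21.02 and 19.09 FPKM in si-NC and 28.72, 28.45 and 28.77 FPKM in si-STRIP2. Every si-STRIP2 library was above every si-NC library. The mean went from 19.9 ± 0.988 to 28.6 ± 0.172 FPKM (SD, n = 3), a log2 fold change of 0.52 with SE 0.044 (adjusted p = 3.96e-12 by edgeR). FDPS thereby moved from the fifth highest mean level of the set to the highest. Its 8 annotated pseudogenes held 0.213% as many counts. The antisense gene RUSC1-AS1 shares 18.6% of FDPS exon bases, held 6.94% as many counts and had a log2 fold change of 1.06, in the same direction as FDPS.

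MVK (ENSG00000110921, chromosome 12, 109573255 to 109598125, plus strand) phosphorylates mevalonate. It had 0.68, 0.76 and 0.79 FPKM in si-NC and 1.28, 1.5 and 1.17 FPKM in si-STRIP2. The groups did not overlap, and the mean went from 0.743 ± 0.0569 to 1.32 ± 0.168 FPKM (SD, n = 3). The log2 fold change of 0.83 (SE 0.11, adjusted p = 1.27e-07 by edgeR) was the highest of the set, although MVK had the lowest level of the 27 genes in both groups. On the log2(FPKM + 1) scale, where the pseudocount exceeds its control level, the difference was 0.41. MMAB, a gene of vitamin B12 metabolism on the opposite strand, starts 325 bases from the MVK start of the deposited table. It shares 4.72% of MVK exon bases. It was singled out after its values were seen. MMAB held 161% as many counts as MVK and went the other way, from 2.66 ± 0.119 to 2.23 ± 0.158 FPKM (log2 fold change -0.27, SE 0.088, adjusted p = 0.0105 by edgeR). The library kit keeps strand but the counting setting is not given in the sources used here, so reads in the shared part cannot be told apart.

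MVD had 5.23, 5.05 and 5.03 FPKM in si-NC and 6.97, 7.03 and 5.85 FPKM in si-STRIP2. It rose by a log2 fold change of 0.37 (SE 0.071, adjusted p = 3.81e-05 by edgeR), and si-STRIP2 replicate 3 was nearest to the control range. The other 4 trunk genes were not called and had overlapping groups. Their log2 fold changes were 0.019 for ACAT2, an acetoacetyl-CoA thiolase gene, 0.033 for HMGCS1, the HMG-CoA synthase gene, 0.078 for PMVK, the phosphomevalonate kinase gene, and 0.025 for IDI1, the isopentenyl diphosphate isomerase gene. The adjusted p-values of these 4 were 0.452 or above. ACAT2 is uncertain, since TCP1, on the opposite strand with 9.23% of ACAT2 exon bases in common, held 1490% as many counts and had a log2 fold change of 0.31.

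**Figure D2:**
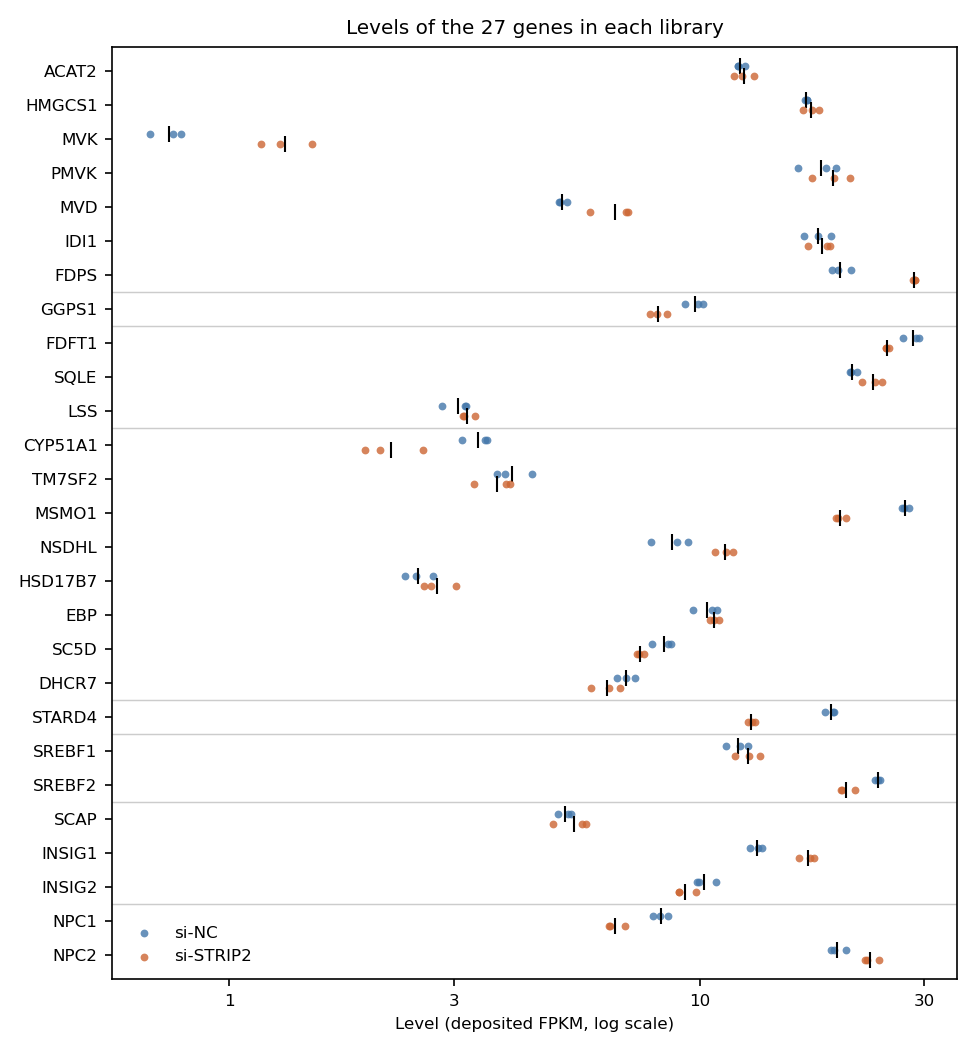
Level of each gene in each library as deposited FPKM on a log axis, with si-NC and si-STRIP2 libraries as points and group means as ticks (3 libraries a group). The groups separate for FDPS, MVK, STARD4, MSMO1 and INSIG1 and lie on top of each other for ACAT2, HMGCS1, IDI1 and EBP.

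At the branch after farnesyl diphosphate the first gene of each arm, GGPS1 and FDFT1, fell, while the squalene and ring genes together stood at 98.2% of the control. GGPS1, which makes the geranylgeranyl donor for protein prenylation, had 10.16, 9.92 and 9.32 FPKM in si-NC and 8.53, 7.85 and 8.12 FPKM in si-STRIP2. It fell by 0.27 on the log2 scale (SE 0.061, adjusted p = 0.000344 by edgeR). Genes that overlap GGPS1 held 259% as many counts, chiefly ARID4B, whose log2 fold change was -0.14. FDFT1, the squalene synthase gene, had 28.85, 29.23 and 27.11 FPKM in si-NC and 24.97, 25.31 and 24.93 FPKM in si-STRIP2. It fell by 0.18 (SE 0.041, adjusted p = 0.000310 by edgeR), with no overlap between groups. The level of FDFT1 was 1.42 ± 0.0376 times that of FDPS in si-NC and 0.875 ± 0.0126 times in si-STRIP2 (SD, n = 3), so the order of these consecutive enzymes changed in every library.

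SQLE, the squalene epoxidase gene, had 21.57, 20.96 and 20.91 FPKM in si-NC and 22.14, 23.62 and 24.41 FPKM in si-STRIP2. It rose by 0.14 (SE 0.045, adjusted p = 0.00904 by edgeR), but the call was lost without si-STRIP2 replicate 3 and under DESeq2, and its adjusted p over all alternatives ranged from 0.00153 to 0.0955. LSS, the lanosterol synthase gene, was not called (0.063, adjusted p = 0.486 by edgeR).

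From lanosterol to cholesterol, 4 of 8 genes fell and 1 rose, where 27% of all tested genes fell and 27.8% rose, and the call of 1 of the 4, DHCR7, was not stable. CYP51A1 (ENSG00000001630, chromosome 7, 92084987 to 92134803, minus strand), which encodes the lanosterol demethylase, had 3.54, 3.12 and 3.50 FPKM in si-NC and 1.94, 2.58 and 2.09 FPKM in si-STRIP2. All si-STRIP2 libraries were below the controls, with replicate 2 closest. The mean went from 3.39 ± 0.232 to 2.203 ± 0.335 FPKM (SD, n = 3), and the log2 fold change was -0.63 with SE 0.10 (adjusted p = 4.50e-06 by edgeR). This was the lowest fold change of the set. AKAP9, on the opposite strand within the same interval, held 647% as many counts and had a log2 fold change of 0.038, and the genes share 0% of CYP51A1 exon bases in GENCODE 29.

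MSMO1 (ENSG00000052802, chromosome 4, 165327667 to 165343164, plus strand), the gene of the methylsterol oxidase that acts after CYP51A1, had 27.91, 26.98 and 27.16 FPKM in si-NC and 19.47, 19.67 and 20.50 FPKM in si-STRIP2. The groups were far apart relative to their spread. The mean fell to 72.7% of the control, a log2 fold change of -0.46 with SE 0.047 (adjusted p = 2.46e-10 by edgeR), and 0 genes overlap it. NSDHL, the sterol dehydrogenase gene of the next step, went the other way, from 9.43, 8.97 and 7.87 FPKM to 11.39, 10.80 and 11.78 FPKM (log2 fold change 0.36, SE 0.079, adjusted p = 0.000234 by edgeR). So neighbouring steps of one reaction series changed in opposite directions, each with groups that did not overlap.

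SC5D, a sterol desaturase gene, went from 8.40 ± 0.414 to 7.47 ± 0.137 FPKM (log2 fold change -0.17, SE 0.045, adjusted p = 0.00194 by edgeR), without overlap. DHCR7, whose product completes cholesterol, had 6.67, 7.28 and 6.99 FPKM in si-NC and 6.43, 6.78 and 5.88 FPKM in si-STRIP2. Its groups overlapped, and although it was called (log2 fold change -0.13, SE 0.055, adjusted p = 0.0388 by edgeR), the call was lost in 9 of 15 alternatives, where its adjusted p ranged up to 0.242. These included leaving out replicate 2 or 3 of si-NC and replicate 1 or 3 of si-STRIP2. TM7SF2 (-0.12), HSD17B7 (0.13) and EBP (0.043), a sterol reductase, a sterol ketoreductase and a sterol isomerase gene, were not called. TM7SF2 overlaps VPS51, which held 194% as many counts and had a log2 fold change of 0.20, and the pseudogenes of HSD17B7 held 20.5% as many.

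LBR, from the wider pathway list, encodes the other reductase that can do the work of TM7SF2, and it rose. Its mean went from 38.1 ± 1.49 to 49.3 ± 1.11 FPKM (log2 fold change 0.37, SE 0.040, adjusted p = 1.21e-09 by edgeR). TM7SF2 stood at 0.105 ± 0.0134 of the LBR level in si-NC and at 0.0752 ± 0.00553 in si-STRIP2 (SD, n = 3). The reductase transcripts were thus mostly LBR in both groups.

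The summed level of the 19 synthesis genes hardly moved, at 229.2, 226.2 and 219.5 FPKM in si-NC and 226.8, 230.9 and 226.3 FPKM in si-STRIP2. Within this total the trunk was higher and the late steps were lower. The 7 trunk genes summed to 92.0, 91.4 and 89.0 FPKM in si-NC and to 104.1, 106.3 and 100.7 FPKM in si-STRIP2, a mean of 114% of the control. The 8 genes after lanosterol summed to 73.5, 71.9 and 70.01 FPKM in si-NC and to 63.9, 64.6 and 65.0 FPKM in si-STRIP2, a mean of 89.8%. Single abundant genes carried most of both shifts. Without FDPS the trunk was at 106% of the control, with 69.9 to 72.3 FPKM in si-NC and 71.9 to 77.8 FPKM in si-STRIP2, where the groups overlapped. Without MSMO1 the late steps were at 44.4 ± 1.41 FPKM in si-NC and 44.6 ± 0.257 FPKM in si-STRIP2. These sums are descriptions with no test, and leaving out FDPS and MSMO1 was chosen after seeing the data.

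**Figure D3:**
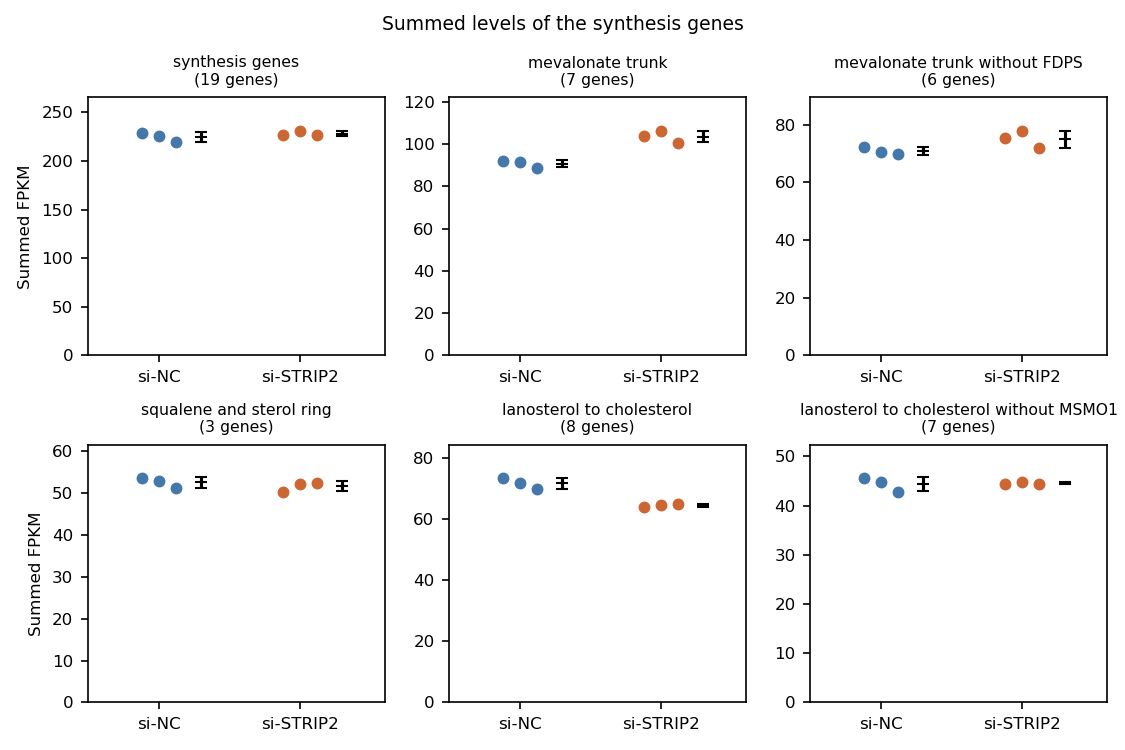
Summed FPKM of the synthesis genes by stage, each panel with its own y axis from 0, with points for libraries and bars for mean and SD (3 libraries a group). The trunk is above and the late steps are below the controls in every si-STRIP2 library, while the sum of all 19 genes stays between 219.5 and 230.9 FPKM.

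STARD4, a soluble carrier that moves cholesterol between membranes, had the smallest adjusted p of the set. STARD4 (ENSG00000164211, chromosome 5, 111496033 to 111512590, minus strand) had 18.51, 19.27 and 19.22 FPKM in si-NC and 13.09, 12.67 and 12.92 FPKM in si-STRIP2. The groups were wide apart, with means of 19.0 ± 0.425 and 12.9 ± 0.211 FPKM (SD, n = 3), a log2 fold change of -0.56 with SE 0.043 (adjusted p = 3.15e-13 by edgeR). STARD4 is one of the known SREBP target genes in this set. It fell, FDPS and INSIG1, also known targets, rose, and the pathway genes HMGCS1, IDI1 and LSS were not called. These genes were picked after their values were seen, and other synthesis genes also went both ways, as given above. SREBP activity was not tested.

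Of the transcription factor genes, SREBF2 fell and SREBF1 was not called. SREBF2 (ENSG00000198911, chromosome 22, 41833079 to 41907307, plus strand) had 23.63, 23.92 and 24.19 FPKM in si-NC and 20.03, 21.42 and 20.06 FPKM in si-STRIP2. Every si-STRIP2 library was below the controls, and the log2 fold change was -0.23 (SE 0.041, adjusted p = 1.76e-05 by edgeR). SREBF1 had 12.18, 11.36 and 12.68 FPKM in si-NC and 12.76, 13.44 and 11.87 FPKM in si-STRIP2, which overlap (log2 fold change 0.068, adjusted p = 0.233 by edgeR). RAI1, which overlaps SREBF1, held 38.6% as many counts and had a log2 fold change of -0.19. The SREBF1 level was 0.505 ± 0.0263 of the SREBF2 level in si-NC and 0.619 ± 0.0239 in si-STRIP2, with no overlap. Transcript levels do not show how much of either protein was cleaved.

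Among the retention genes, INSIG1 and INSIG2 moved in opposite directions. INSIG1 (ENSG00000186480, chromosome 7, 155297776 to 155310235, plus strand), itself switched on by the SREBPs, had 12.80, 13.55 and 13.34 FPKM in si-NC and 16.25, 17.52 and 17.15 FPKM in si-STRIP2. The mean rose to 128% of the control (log2 fold change 0.36, SE 0.050, adjusted p = 2.28e-07 by edgeR), and 0 genes overlap INSIG1. INSIG2 had 10.84, 9.90 and 9.99 FPKM in si-NC and 9.05, 9.85 and 9.06 FPKM in si-STRIP2, where replicate 2 nearly touched the controls. Its log2 fold change was -0.14 (SE 0.059, adjusted p = 0.0389 by edgeR), and the call was lost in 8 of 15 alternatives, with an adjusted p of up to 0.257, among them those that left out si-NC replicate 1 or si-STRIP2 replicate 1 or 3. INSIG1 stood at 1.29 ± 0.1 times the INSIG2 level in si-NC and at 1.82 ± 0.0617 times in si-STRIP2. SCAP, the sterol sensor and escort, was not called (0.059, adjusted p = 0.457 by edgeR).

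**Figure D4:**
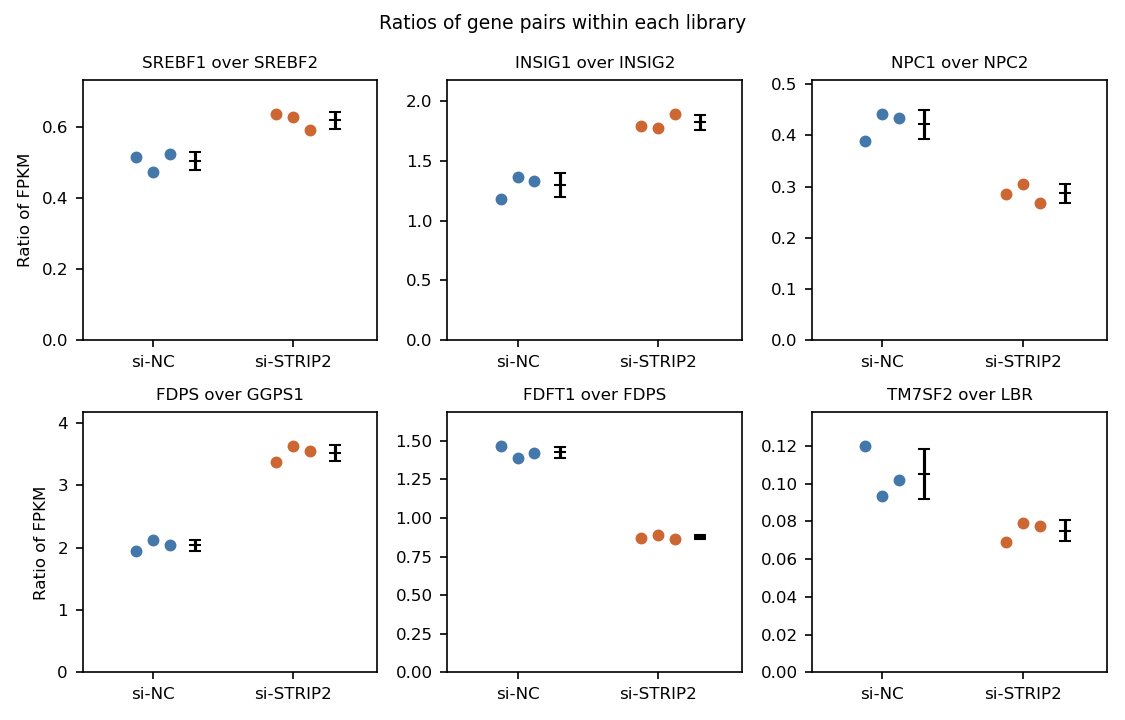
Ratio of FPKM of 6 gene pairs within each library, each panel with its own y axis from 0, with points for libraries and bars for mean and SD (3 libraries a group). The pairs were chosen with the values known, so no test is given, and in all 6 panels the groups lie apart, most widely, as a ratio of means, for FDPS over GGPS1 (2.04 ± 0.0912 and 3.51 ± 0.132).

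The lysosomal exporters also parted. NPC2, which hands cholesterol to NPC1 in the lysosome, had 20.49, 19.36 and 19.03 FPKM in si-NC and 22.46, 22.71 and 24.04 FPKM in si-STRIP2 (log2 fold change 0.23, SE 0.051, adjusted p = 0.000312 by edgeR). NPC1, the membrane protein that receives it, had 7.97, 8.56 and 8.26 FPKM in si-NC and 6.43, 6.95 and 6.46 FPKM in si-STRIP2 (log2 fold change -0.32, SE 0.047, adjusted p = 4.12e-07 by edgeR). Neither gene had overlapping groups, and the NPC1 level went from 0.422 ± 0.0287 to 0.287 ± 0.0187 of that of NPC2. Both overlap a neighbour on the opposite strand, with 5.98% of NPC1 and 3.75% of NPC2 exon bases in common. RMC1 held 43.2% as many counts as NPC1 and had a log2 fold change of -0.32, and ISCA2 held 39.4% as many as NPC2 and had one of 0.071.

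The members spanned a wide range of levels, from 0.743 FPKM for MVK to 28.4 FPKM for FDFT1 in si-NC, 38.2-fold in all. The order was FDFT1, MSMO1, SREBF2, SQLE, FDPS, NPC2, STARD4, PMVK, IDI1, HMGCS1, INSIG1, ACAT2, SREBF1, EBP, INSIG2, GGPS1, NSDHL, SC5D, NPC1, DHCR7, SCAP, MVD, TM7SF2, CYP51A1, LSS, HSD17B7 and MVK. Of the 26 neighbouring pairs in this order, 15 had overlapping values in si-NC, so much of the middle of the order is not resolved. In si-STRIP2 the span was 21.8-fold, and 12 of 26 neighbouring pairs overlapped. FDPS took the first place there and MVK kept the last. The coefficient of variation over the 3 libraries had a median of 4.42% in si-NC and 4.41% in si-STRIP2, with the highest values for PMVK in si-NC (9.48%) and CYP51A1 in si-STRIP2 (15.2%). Within si-STRIP2, replicate 2 had the highest value for 16 of the 27 genes, and within si-NC, replicate 1 for 14.

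For 10 members a tested gene began within 1000 bases on the opposite strand, and in 4 of these pairs both genes were called. The same counts over all genes were not computed. MVD and SNAI3-AS1 both rose, as did NSDHL and CETN2, while GGPS1 and ARID4B both fell. SNAI3-AS1 was low, with means of 0.14 FPKM in si-NC and 0.25 FPKM in si-STRIP2. MVK and MMAB went apart. These neighbours were named after their values were seen.

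The wider pathway was examined in 6 lists of 79 further genes. Of 77 tested, 50 were called (64.9%), 18 higher and 32 lower, against 54.8% of all tested genes. In the list of SREBP cleavage, transport and sterol-regulated ubiquitination, 5 of 17 rose and 7 fell (70.6% called). RNF145, a sterol-responsive ubiquitin ligase gene, went from 33.0 ± 0.841 to 21.96 ± 0.583 FPKM (log2 fold change -0.59, adjusted p = 5.49e-14 by edgeR). The coat genes of vesicles that leave the endoplasmic reticulum split, with SEC23B at -0.46 and SEC24C at 0.55. The other 4 that rose, named after their values were seen, were MBTPS1, the first SREBP protease gene, SEC23A, UBXN8 and ERLIN1, with log2 fold changes of 0.13 to 0.21. Others that fell, named in the same way, included MBTPS2, the gene of the protease that cuts next (-0.29), RNF139 (-0.42), SPRING1 (-0.17) and SEC24D (-0.12).

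Of 12 fatty acid genes under SREBP control, 4 rose and 5 fell, so 9 were called (75%), against 54.8% of all tested genes. FASN, the fatty acid synthase gene, went from 22.8 ± 1.03 to 30.5 ± 1.85 FPKM (log2 fold change 0.42, adjusted p = 7.16e-10 by edgeR), and ACLY, which makes cytosolic acetyl-CoA, rose by 0.31. The other 2 that rose, named after their values were seen, were ACACA, which makes malonyl-CoA (0.31), and ACSS2, which makes acetyl-CoA from acetate (0.17). ME1, the malic enzyme gene, fell by 0.45 (adjusted p = 2.05e-11 by edgeR). Also lower, and likewise named afterwards, were the desaturase and elongase genes SCD (-0.11), ELOVL6 (-0.15), FADS1 (-0.23) and FADS2 (-0.26). ACACB, GPAM and ELOVL5 were not called, with log2 fold changes of -0.048, -0.095 and 0.066.

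In the list of cholesterol esterification, export and LXR genes, 7 of 9 tested were called lower, against 27% of all tested genes. The LXR genes, named after their values were seen, parted, with NR1H3 called higher (0.51) and NR1H2 lower (-0.28). Likewise named afterwards, MYLIP was lower (-0.27), as were the exporter genes ABCA1 and ABCG1. The si-NC means of ABCA1 and ABCG1 were low, at 0.347 and 0.403 FPKM. SOAT1, the cholesterol esterifying enzyme gene, had a log2 fold change of -0.52 (adjusted p = 2.29e-11 by edgeR), the ester hydrolase gene NCEH1 one of -0.39 and the lysosomal lipase gene LIPA one of -0.27. Among 15 intracellular sterol carrier genes 0 rose and 6 fell, so 40% were called, against 54.8% of all tested genes. GRAMD1B, which moves plasma membrane cholesterol inward, went from 2.13 ± 0.142 to 0.937 ± 0.0814 FPKM (log2 fold change -1.19, adjusted p = 7.61e-15 by edgeR), OSBPL8 had a log2 fold change of -0.63 and GRAMD1C one of -0.41. The other 9 carrier genes were not called, with log2 fold changes between -0.071 (OSBP) and 0.093 (OSBPL5).

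Of 15 genes that use isoprenoids, 4 rose and 5 fell (60% called, against 54.8% of all tested genes). PGGT1B, a subunit of a prenyl transferase that uses the GGPS1 product, had a log2 fold change of -0.37 (adjusted p = 3.51e-08 by edgeR). FNTB, a farnesyltransferase subunit, had one of 0.70, but overlapping genes, chiefly MAX, held 578% as many counts. CHM, a Rab escort gene of prenylation, had one of -0.31, while CHML, the other Rab escort gene, named after its values were seen, had one of 0.30. Named in the same way, FNTA, the subunit shared by the farnesyl and geranylgeranyl enzymes, had one of 0.24 and PDSS1 one of 0.23, and lower were RABGGTB (-0.12), NUS1 (-0.19) and ZMPSTE24 (-0.20). In the list of further synthesis and uptake genes, 6 of 9 were called (66.7%, against 54.8% of all tested genes). Among them were LBR as above and ERG28, a scaffold gene of sterol synthesis, at -0.21. Genes overlapping ERG28 held 114% as many counts.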

How the data were processed

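RNA-seq was run on poly(A) RNA of 6 HCT116 libraries. Per the submitters' processing notes, bcl2fastq 2.20.0.422, FastQC 0.10.1, cutadapt 1.9.1, HISAT2 2.2.1, HTSeq 0.6.1 and the build GRCh38.p13 were used. The annotation release and the strand setting are not given in the sources used here. Per the file headers, the authors deposited raw counts and FPKM values per gene, and the deposited FPKM differed from counts over exonic size and library total by at most 0.005. How exonic size was computed is not given in the sources used here, so levels set between genes depend on it.

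Counts were tested in R 4.3.3 with edgeR 4.0.16 (filterByExpr with a minimum count of 10, TMM, quasi-likelihood F test on group, Benjamini-Hochberg over 15687 genes). Standard errors are the log2 fold change over the square root of F. Alternatives used DESeq2 1.42.0 and limma 3.58.1. The fit was tested on simulated data. Chi-square per degree of freedom was 2.15 to 16.9 within groups, so no libraries agreed within sampling noise. Overlaps used the table's coordinates and GENCODE 29 exons. Count and FPKM precision is limited by depth.

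The members, lists and tests were chosen with earlier results of these data known. All 27 members are named. From each wider list the rule names up to 3 called genes with the smallest adjusted p and groups that did not overlap. Some listed genes are not reported here. No set test was run.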

Additional observations from a re-analysis of the deposited data

How the results depend on the processing

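Results were recomputed under 15 alternatives: DESeq2, 3 other scalings, 2 other filters, limma with 2 pseudocounts, a replicate block and 6 fits that each left out a library. Of the 17 called members, 14 were called in the same direction in all 15, and SQLE, DHCR7 and INSIG2 lost their calls in some. None of the 10 members without a call gained one, and the sign of 4 of them (ACAT2, PMVK, IDI1 and EBP) changed in at least 1 alternative. The number of called members ranged from 14 to 17, both over the fits without a library and over the others. The median log2 fold change of the members ranged from 0.00416 to 0.0521 in the fits without a library, lowest without si-STRIP2 replicate 2 and at 0.00957 without si-NC replicate 3, and was not tested. Of the wider lists, 40 to 50 genes were called. The median of all tested genes moved by less than 0.1 under each alternative. With the replicate number as a block, 16 members were called, 7 higher and 9 lower, INSIG2 being lost. Deviations of same-numbered libraries correlated at -0.0858, -0.0133 and -0.0718 across genes, and those of differently numbered libraries at -0.0405 to 0.112. The deviations are from means of only 3 libraries, so these values cannot decide whether the numbers pair the libraries. Depth limits MVK most, with 118 to 236 counts a library.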
